A study of Mus musculus with 9 samples.

Results

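The mitochondrial genome of the mouse is described here through the 37 genes that GENCODE M21 annotates on it, of 38560 genes in the deposited count table. All genes with a symbol starting with mt- were taken, and no measured value was used to choose them. They comprise 13 protein genes, 2 ribosomal RNA genes and 22 transfer RNA genes. Their RNA was followed in 9 libraries of total RNA of the fetal testis of mice, taken 12.5 days post coitum, from 3 sorted populations named Leydig, Interstitial and Sertoli. All populations came from mice of the Sf1-eGFP strain, which carry a green fluorescent reporter transgene under control of the gene for steroidogenic factor SF1. Cells bound by an antibody to CD31 were sorted out to remove germ and endothelial cells, so what reached each tube depended on that stain and on the reporter. Each population gave libraries A, B and C, pooled over many sorting experiments and litters. Per the labels' protocols, one library per population mixed the RNA of A and B. By elimination this was taken to be C, although the labels do not state it. Tests therefore used the 6 libraries A and B, and C is shown beside them. Nothing in the labels says whether A and B held different embryos of the same sorts, so p-values measure only the spread between pools.

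The mitochondrial genome is a small circle that is copied and read inside the mitochondrion. Both strands are transcribed into long precursor RNAs, and most of the tRNAs lie between the mRNAs and rRNAs and are cut out of them, which releases the RNAs on either side. The 13 mRNAs encode core subunits of respiratory chain complexes I, III and IV and of the ATP synthase (complex V), while all other subunits, and the polymerase, ribosomal proteins and processing enzymes, come from nuclear genes. In steroid-producing cells such as Leydig cells, the first step of steroid synthesis takes place in the mitochondrion.

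Of the 13 mRNAs, 12 are encoded on the plus strand of the reference and 1, mt-Nd6, on the minus strand, with 8 of the 22 tRNA genes. The sequences below are from the GENCODE M21 transcripts of GRCm38 (mm10), 5′ to 3′ on the strand of the gene. The ends of mt-Nd6 are shown because this gene had the largest differences between populations among the mRNAs. In the first its start codon is in capitals, and in the last the bases that lie opposite the end of mt-Nd5. The gene is a single exon with no intron, at chrM:13552-14070.
mt-Nd6, first bases (chrM:14011-14070, minus strand): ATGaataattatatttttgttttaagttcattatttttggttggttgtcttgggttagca
mt-Nd6, last bases (chrM:13552-13611, minus strand): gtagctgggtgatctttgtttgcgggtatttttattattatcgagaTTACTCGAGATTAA
mt-Nd5, last bases (chrM:13536-13565, plus strand): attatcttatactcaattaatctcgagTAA

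The base composition of mt-Nd6 was unlike that of the other mRNAs. It held 28.1% G and 5.97% C, while the other 12 held 5.88 to 16.1% G and 22.1 to 29.97% C. The genes are packed so closely that neighbours share bases: mt-Nd6 and mt-Nd5 share 14 bases on opposite strands, mt-Nd4l and mt-Nd4 share 7 on the same strand, and mt-Atp8 and mt-Atp6 share 43. The last of these overlaps is shown because reads that touch it cannot be given to one subunit of the ATP synthase. Its capitals mark the shared bases, which open with the start codon of mt-Atp6.
mt-Atp8, last bases (chrM:7910-7969, plus strand): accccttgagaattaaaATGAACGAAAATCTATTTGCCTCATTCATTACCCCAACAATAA

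Of the 13 mRNAs, 3 end in the annotation with an incomplete stop codon, a single T (capitals), which polyadenylation is known to complete in mammalian mitochondria. They are the mRNAs of cytochrome c oxidase subunit III, NADH dehydrogenase subunit 4 and cytochrome b. The end of mt-Co1, which has a complete stop codon, is given for comparison.
mt-Co3 (chrM:9361-9390, plus strand): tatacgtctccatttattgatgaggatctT
mt-Nd4 (chrM:11515-11544, plus strand): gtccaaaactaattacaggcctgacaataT
mt-Cytb (chrM:15259-15288, plus strand): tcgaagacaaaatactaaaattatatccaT
mt-Co1 (chrM:6843-6872, plus strand): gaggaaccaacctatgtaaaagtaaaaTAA

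After the 4 lanes of each library were summed, between 33.1 and 39.2 M reads lay in genes (M, 1e6). Marker genes were summed as CPM, counts per 1e6 reads in genes after TMM scaling (edgeR's trimmed mean of M-values). The 6 Sertoli markers summed to 813 to 844 CPM in Leydig, 134 to 159 in Interstitial and 2718 to 2943 in Sertoli libraries. The 6 Leydig markers summed to 237 to 447 CPM in Leydig, 42.2 to 65.8 in Interstitial and 251 to 301 in Sertoli libraries, so that Leydig and Sertoli libraries overlapped on this list, and none of its 6 genes was called between them. The 5 interstitial markers summed to 1087 to 1208 CPM in Leydig, 819 to 865 in Interstitial and 331 to 344 in Sertoli libraries. The 5 erythroid markers summed to 122 to 427 CPM in Leydig, 9622 to 10311 in Interstitial and 118 to 343 in Sertoli libraries, and the 4 germ cell markers to 47.1 to 205 CPM in Leydig, 749 to 859 in Interstitial and 52.9 to 81.2 in Sertoli libraries. The 4 endothelial markers summed to 159 to 184, 206 to 224 and 35.7 to 39.3 CPM and the 3 macrophage markers to 6.05 to 12.3, 25.3 to 42.3 and 0.786 to 1.35 CPM in Leydig, Interstitial and Sertoli libraries. No marker of these lists was at 0 in any library. The Interstitial libraries stood above both other populations on the erythroid, germ cell, endothelial and macrophage lists, and the Leydig libraries on the interstitial list. Below, Leydig, Interstitial and Sertoli cells stand for these sorted populations and not for pure cell types.

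The 13 mRNAs took a share of the reads in genes that lay within 1.71 and 2.02% in all 9 libraries. In Leydig libraries A, B and C the share was 1.76, 1.79 and 1.77%. In Interstitial libraries it was 1.71, 1.73 and 1.75%. In Sertoli libraries it was 1.91, 1.77 and 2.02%. Leydig lay above Interstitial in every library, by little, whereas Sertoli A and C lay above all other libraries and Sertoli B lay among the Leydig ones. The 95% binomial intervals (Wilson method) were narrow, for example 1.91 to 1.92% in Sertoli A, but they cover counting error only.

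Lanes of 1 library differed by at most 0.0221 percentage points. Between Leydig and Sertoli the means were 1.78 ± 0.017% and 1.84 ± 0.102% (SD, n = 2 each), a difference of -0.07 points. The difference was 0.06 points for Leydig against Interstitial (1.72 ± 0.012%) and -0.12 points for Interstitial against Sertoli. With 2 libraries against 2, the smallest two-sided p of an exact permutation test is 0.33, so no share could pass a threshold. It was 0.667 for Leydig against Sertoli and 0.33 for each of the others. The Leydig-Interstitial difference depended on the denominator: it was -0.00 points (-0.0003) when reads outside genes and ambiguous reads were counted in, and 0.12 points when mitochondrial rRNA was left out. In bulk RNA, fewer cells of a type and less RNA per cell cannot be told apart.

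**Figure D1:**
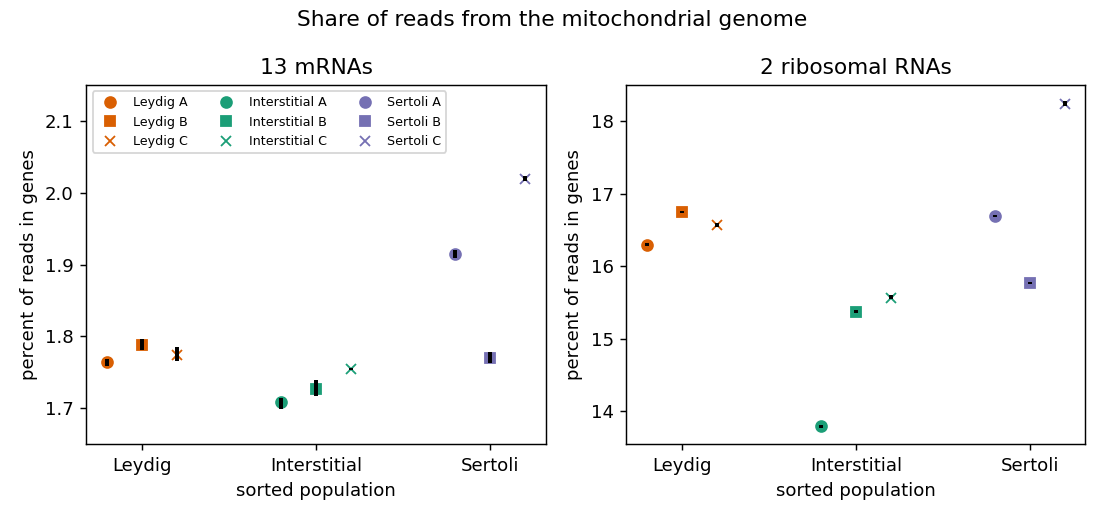
Share of the reads in genes that came from the 13 mRNAs (left) and the 2 ribosomal RNAs (right) of the mitochondrial genome, in percent, by library; symbols give libraries A, B and C, and black bars the range over the 4 lanes of a library. The axes do not start at 0. Sertoli C is highest in both panels, at 2.02% and 18.2%, and Interstitial A is lowest in both, at 1.71% and 13.8%.

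The 2 ribosomal RNAs took 8.07 to 9.37 times as many reads as the mRNAs, by library, although the libraries had been depleted of ribosomal RNA. The sources used here do not say whether the depletion probes covered mitochondrial rRNA, so these values describe what depletion left. The rRNA share was 16.3, 16.7 and 16.6% in Leydig A, B and C, 13.8, 15.4 and 15.6% in Interstitial and 16.7, 15.8 and 18.2% in Sertoli libraries. All Interstitial libraries lay below all Leydig and Sertoli libraries, with a gap of only 0.2 points between Interstitial C and Sertoli B. The differences of the means of A and B were 0.29 points for Leydig against Sertoli, 1.94 points for Leydig against Interstitial and -1.65 points for Interstitial against Sertoli, with the same exact permutation p-values as for the mRNAs.

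Most of the rRNA reads came from mt-Rnr2, the 16S rRNA of the large mitochondrial ribosomal subunit, and the rest from mt-Rnr1, the 12S rRNA of the small subunit. The number of 16S reads per 12S read was 15.4, 16.1 and 16.4 in Leydig A, B and C, 15.0, 14.5 and 15.98 in Interstitial, and 12.6, 16.1 and 14.1 in Sertoli libraries. The ratio varied more within Sertoli than between the other populations, and Sertoli A was the lowest of the 9. mt-Rnr1 reached 12891 CPM in Sertoli A and 12758 CPM in Sertoli C, against 9476 CPM in Sertoli B, which is close to the 9504 to 9918 CPM of Leydig libraries.

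Per kilobase of gene, the mRNAs spanned 124-fold. The 3 subunits of cytochrome c oxidase (complex IV), which passes electrons to oxygen, came first. mt-Co3 averaged 5533 TMM CPM per kilobase over the 6 libraries A and B, mt-Co1 4313 and mt-Co2 3247. Next came mt-Atp6 of the ATP synthase with 1522 and mt-Nd3 of complex I (NADH dehydrogenase) with 1481, then mt-Nd1 with 1100, and mt-Cytb, the only mitochondrially encoded subunit of complex III, with 815. mt-Atp8 averaged 524. The remaining complex I mRNAs were lower: mt-Nd2 averaged 226, mt-Nd4 224, mt-Nd5 161, mt-Nd4l 56.4 and mt-Nd6 44.5 TMM CPM per kilobase.

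Over all 9 libraries the ranges of neighbours in this order overlapped for mt-Co3 and mt-Co1, mt-Co1 and mt-Co2, mt-Atp6 and mt-Nd3, mt-Nd1 and mt-Cytb, mt-Nd2 and mt-Nd4, and mt-Nd4l and mt-Nd6. The other neighbours did not overlap. The complex IV mRNAs thus stood above all others, mt-Nd3 and mt-Nd1 of complex I stood above mt-Cytb, and the other 5 complex I mRNAs came after mt-Atp8. Per length, 16S rRNA was 7.58 to 9.89 times 12S rRNA in what ribosomal depletion left. The part of depletion in that ratio was not tested.

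**Figure D2:**
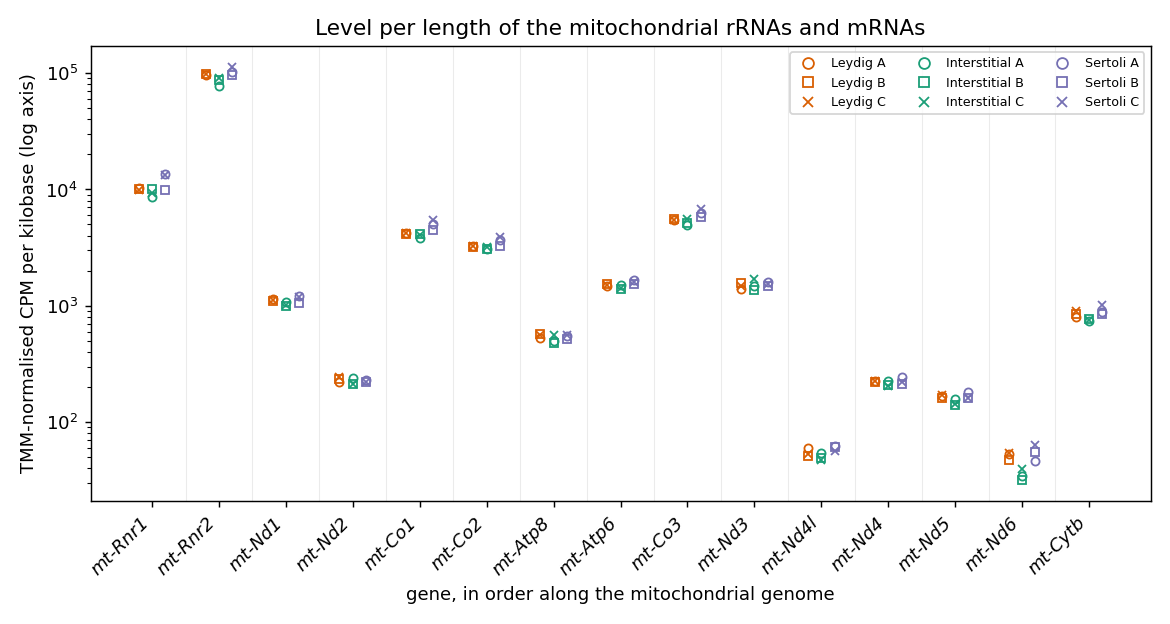
Level per length of the 2 rRNAs and 13 mRNAs in TMM-normalised CPM per kilobase (log axis), in their order along the mitochondrial genome, with 1 symbol per library. The populations lie close together at every gene, while the genes span 124-fold among the mRNAs; at mt-Nd6 the 3 Interstitial libraries lie lowest.

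These levels depend on where reads could be placed. The GENCODE transcripts of 15 genes outside the mitochondrial genome share stretches of at least 50 bases with these genes, 7 of them on chromosome 1. All 50-base windows of mt-Co2 were found there too, 99.9% of those of mt-Co3, 99.5% of mt-Atp6, 98.8% of mt-Nd4l and 98.0% of mt-Nd3. For mt-Nd4 it was 62.2% and for mt-Co1 51.1%, for mt-Nd2 8.19%, for mt-Nd5 7.61% and for mt-Rnr2 1.04%. mt-Nd1, mt-Nd6, mt-Cytb, mt-Atp8 and mt-Rnr1 shared none. The sources used here do not say how the authors' alignment treated reads with several places. The level of a gene with copies may therefore be too low, and its part in the order of levels was not tested.

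Reads did reach some of the copies. Gm10222, an unprocessed pseudogene of mt-Nd4l at chr1:24612407-24612700, held 818, 845 and 877 reads in Leydig A, B and C, 1014, 721 and 795 in Interstitial and 940, 868 and 873 in Sertoli libraries. That was 1.39 to 1.61 reads for each read of mt-Nd4l in the same library, with no population apart from the others over all 3 libraries. Gm13340, a copy of mt-Co1 on chromosome 2 that shares 411 of its 1496 windows of 50 bases, held 6.68 to 7.36 reads per 1000 reads of mt-Co1. Gm13341, a neighbouring copy of mt-Co2, held 4.89 to 7.22 per 1000 reads of mt-Co2. No other copy with a row in the count table reached 100 reads, and 7 of the 15 had no row.

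By complex, the mRNA reads divided in nearly the same way in every library. Complex IV took 74.4, 73.8 and 73.5% of the mRNA reads in Leydig A, B and C, 73.1, 75.0 and 74.8% in Interstitial and 75.4, 75.1 and 76.9% in Sertoli libraries. The 7 complex I mRNAs together took 14.1, 14.1 and 14.2% in Leydig, 14.8, 13.4 and 13.8% in Interstitial and 13.3, 13.1 and 11.99% in Sertoli libraries. The ATP synthase mRNAs took 5.64 to 6.88% and mt-Cytb 5.02 to 5.78% over the 9 libraries. Sertoli libraries held the most complex IV and the least complex I. They did not overlap the other populations in either, but Interstitial B came close to Sertoli B in the first and to Sertoli A in the second.

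The ratio of mt-Co1 to mt-Nd1, plus-strand mRNAs from 1 precursor, restates part of this pattern. Their reads, 36.4 to 39.7% and 5.35 to 6.31% of the mRNA reads, are already counted in the shares of complexes IV and I. mt-Co1 had 6.65, 6.87 and 7.42 reads per read of mt-Nd1 in Sertoli A, B and C. It had 5.97, 6.14 and 6.03 in Leydig and 5.76, 6.61 and 6.43 in Interstitial libraries. The Sertoli libraries were above all others. The exact permutation p was 0.33 for Leydig against Sertoli and for Interstitial against Sertoli, the smallest that 2 libraries against 2 allow. The differences between populations were tested gene by gene in the fit of all 18048 genes that passed the filter on low counts.

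In Leydig against Sertoli cells, none of the 13 mRNAs was called at an adjusted p of 0.05 in edgeR's quasi-likelihood test with Benjamini-Hochberg adjustment, while 37.5% of all genes tested were, 16.9% higher and 20.6% lower in Leydig. At an unadjusted p of 0.05 there was 1, mt-Co1. DESeq2 and limma voom each called 2 of 13, mt-Co1 and mt-Co3, both lower in Leydig. The log2 differences ran from -0.21 to 0.00 with a median of -0.10, against a median of -0.01 over all genes, and 12 of 13 were negative. With scaling by library size alone, which moved the median of all genes to 0.10, 7 of 13 were negative, and relative to the sum of the 13 mRNAs 2 were.

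The mRNA of mt-Co1, the catalytic subunit of cytochrome c oxidase, came nearest to a call in that comparison. It stood at 6571, 6442 and 6521 CPM in Leydig A, B and C, and at 7761, 6911 and 8471 CPM in Sertoli libraries. All Sertoli libraries were higher, and they differed more among themselves than the Leydig ones. The log2 difference was -0.21 ± 0.09 (SE, n = 2 each), with an adjusted p of 0.082 in edgeR.

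In Leydig against Interstitial cells, 2 of the 13 mRNAs were called, both higher in Leydig, mt-Nd6 and mt-Atp8, while 45.1% of all genes were called in either direction, 22% higher and 23.2% lower in Leydig. All 13 differences were positive, with a median of 0.11 against 0.01 over all genes, while 11 of 13 were positive with library size scaling and 6 of 13 relative to the sum of the 13 mRNAs. Without Leydig B, Interstitial A, Interstitial B, Sertoli A or Sertoli B, left out 1 at a time, the count was 1, since mt-Atp8 was not called (adjusted p of 0.0514 to 0.259 in edgeR). mt-Atp8, a small subunit of the ATP synthase, had 108, 117 and 114 CPM in Leydig and 102, 97.4 and 115 CPM in Interstitial A, B and C. Interstitial C lay within the Leydig range. Its log2 difference was 0.19 ± 0.07 with an adjusted p of 0.0449 in edgeR, and over all 9 libraries 0.11 with an adjusted p of 0.131.

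In Interstitial against Sertoli cells, 9 of the 13 mRNAs were called, all lower in Interstitial, while 61.8% of all genes were called in either direction, 32.7% higher and 29.1% lower in Interstitial. The median of the 13 was -0.22 against 0.04 over all genes. All 13 were negative, and 12 were with mitochondrial genes left out of the scaling. Scaling by library size alone left 11 negative and 1 called, mt-Nd6, and moved the median of all genes to 0.21. The count also rested on single pools: it was 2 without Interstitial A, 3 without Interstitial B and 3 without Sertoli A.

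The 9 mRNAs came from all 4 complexes that the genome encodes parts of. From complex IV, mt-Co1 fell by 0.31, mt-Co3 by 0.30 and mt-Co2 by 0.22 on the log2 scale, with standard errors of 0.09, 0.08 and 0.08. mt-Cytb of complex III had 845, 872 and 866 CPM in Interstitial A, B and C, and 1006, 973 and 1161 CPM in Sertoli libraries. The populations did not overlap there, and the log2 difference of -0.26 ± 0.06 had an adjusted p of 0.00708 in edgeR. Both ATP synthase mRNAs were called, mt-Atp6 at -0.21 ± 0.07 and mt-Atp8 at -0.19 ± 0.07. Of these mRNAs, mt-Co3 lost its call without Interstitial A (-0.22, adjusted p of 0.0701), mt-Co1 without Interstitial A (-0.21, 0.111) or Sertoli A (-0.23, 0.0695), and mt-Cytb without Interstitial A (-0.18, 0.103) or Interstitial B (-0.22, 0.0573), in edgeR. mt-Co2, mt-Atp6 and mt-Atp8 each lost theirs without Leydig B, Interstitial A, Interstitial B or Sertoli A, and then ran from -0.20 to -0.10.

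Of complex I, mt-Nd4l, mt-Nd5 and mt-Nd6 were called, and mt-Nd1, mt-Nd2, mt-Nd3 and mt-Nd4 were not. mt-Nd5, which encodes a proton-pumping subunit, had 285, 258 and 259 CPM in Interstitial A, B and C, and 330, 294 and 296 CPM in Sertoli libraries. The populations did not overlap, although Sertoli B was close to Interstitial A, and the log2 difference was -0.26 ± 0.08. It became -0.13 without Interstitial B (adjusted p of 0.298 in edgeR) and -0.18 without Sertoli A (0.126), and was no longer called. The call of mt-Nd4l was lost without Interstitial A (0.072), Interstitial B (0.326), Sertoli A (0.117) or Sertoli B (0.0832). mt-Nd2, which lies next to the rRNA end of the precursor with mt-Nd1, had 249, 222 and 220 CPM in Interstitial and 239, 227 and 229 CPM in Sertoli libraries, which overlapped. For the uncalled complex I mRNAs the log2 differences ran from -0.18 to -0.04.

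Both rRNAs were called in that comparison too. Between Interstitial and Sertoli, mt-Rnr2 had a log2 difference of -0.32 ± 0.10 with an adjusted p of 0.02 and mt-Rnr1 of -0.38 ± 0.14 with an adjusted p of 0.0402, in edgeR. The call of mt-Rnr2 was lost without Interstitial A (-0.18, adjusted p of 0.0937) or Sertoli A (-0.28, 0.0699). That of mt-Rnr1 was lost without Interstitial A (-0.23, 0.273), Interstitial B (-0.43, 0.0538) or Sertoli A (-0.15, 0.297), and in DESeq2 (0.0763). For mt-Rnr1 the libraries overlapped, since Interstitial B at 9567 CPM was above Sertoli B at 9476 CPM. Neither rRNA was called for Leydig against Sertoli in the main fit, although mt-Rnr1 was in 3 of 16 alternatives. For Leydig against Interstitial, mt-Rnr2 was at 0.25 ± 0.10 with an adjusted p of 0.067 in edgeR. It was called in 6 of 16 alternatives, among them DESeq2 (adjusted p of 0.00128), limma voom (0.00538) and edgeR on all 9 libraries (0.04). The erythroid, germ cell, endothelial and macrophage marker sums given above moved with the comparisons of Interstitial libraries, and their part in them was not tested.

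**Figure D3:**
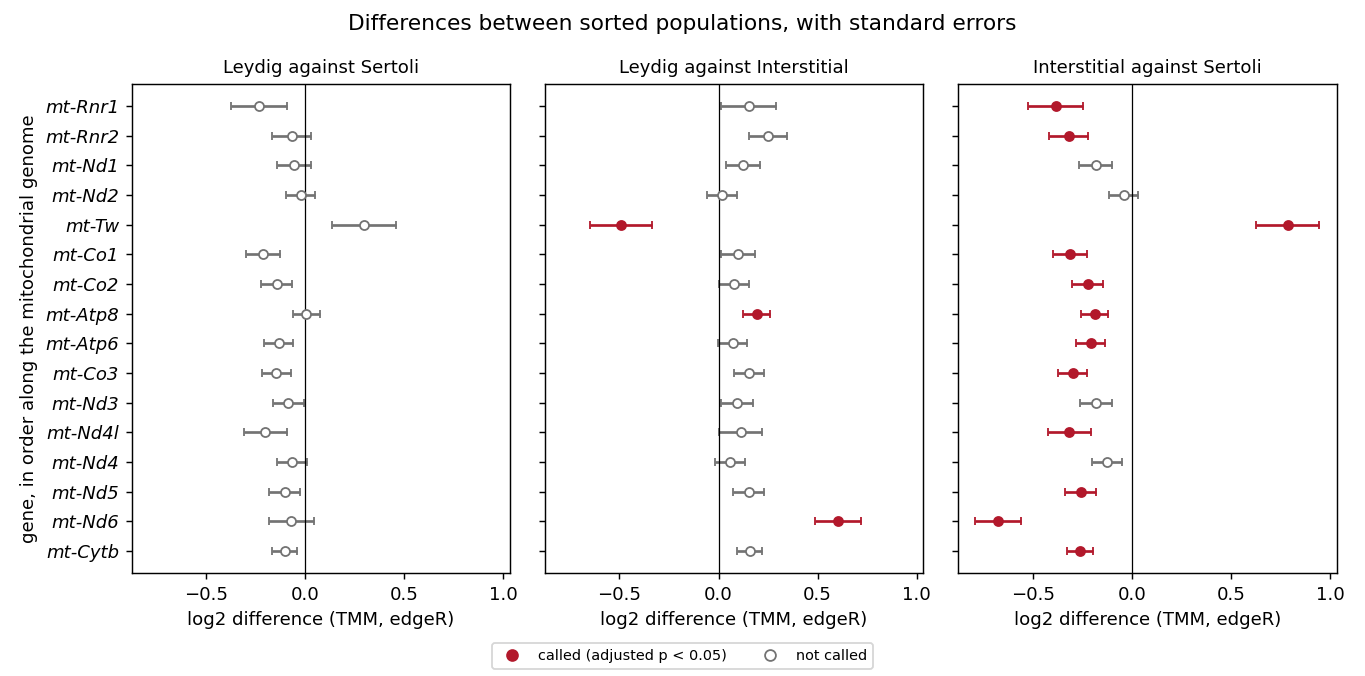
Log2 difference between populations (edgeR, TMM scaling, 2 libraries a population) with its standard error for 13 mRNAs, 2 rRNAs and mt-Tw, in genome order; red points passed an adjusted p of 0.05. No mRNA is called for Leydig against Sertoli, 2 for Leydig against Interstitial and 9 for Interstitial against Sertoli; mt-Nd6 and mt-Tw stand off from the rest, in opposite directions.

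The mRNA of mt-Nd6, a complex I subunit and the only mRNA from the minus strand, was lower in the Interstitial population than in both others. It had 27.4, 24.3 and 28.3 CPM in Leydig A, B and C, 18.0, 16.3 and 20.4 CPM in Interstitial and 23.9, 28.9 and 32.9 CPM in Sertoli libraries. All 3 Interstitial libraries lay below all other libraries, and Leydig and Sertoli overlapped. The means of A and B were 25.8 ± 2.18 CPM in Leydig, 17.2 ± 1.17 CPM in Interstitial and 26.4 ± 3.53 CPM in Sertoli libraries (SD, n = 2 each). These values rested on 561 to 1223 reads per library.

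The log2 difference of mt-Nd6 for Leydig against Interstitial was 0.60 ± 0.12 (1.52-fold) with an adjusted p of 0.00323 in edgeR. For Interstitial against Sertoli it was -0.67 ± 0.12 with an adjusted p of 0.000962. For Leydig against Sertoli it was -0.07 ± 0.11 with an adjusted p of 0.669. Both calls were kept in 16 of 16 alternatives that changed the tool, filter, scaling, lanes or libraries, with adjusted p-values up to 0.0319 and 0.015.

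Set against the other mitochondrial mRNAs of the same library, mt-Nd6 still differed. For every 1000 reads of the other 12 mRNAs there were 1.55, 1.38 and 1.60 reads of mt-Nd6 in Leydig A, B and C, 1.10, 0.982 and 1.19 in Interstitial and 1.19, 1.59 and 1.55 in Sertoli libraries. Leydig and Interstitial did not overlap in any library, but Sertoli A was level with Interstitial C. When library sizes were set to the sum of the 13 mRNAs, mt-Nd6 was the only mRNA called in any comparison. Its log2 difference was then 0.49 ± 0.14 for Leydig against Interstitial, with an adjusted p of 0.0185, and -0.41 for Interstitial against Sertoli, with an adjusted p of 0.0259, in edgeR. Under that scaling 9 of the 13 mRNAs were positive and 4 negative for Interstitial against Sertoli, up to 0.23 at mt-Nd2.

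Reads of the other minus-strand genes were few. The 8 minus-strand tRNA genes together held 186, 179 and 234 reads in Leydig A, B and C, 179, 166 and 205 in Interstitial and 195, 194 and 221 in Sertoli libraries. Per 1000 mRNA reads that was 0.318, 0.293 and 0.358 in Leydig, 0.271, 0.290 and 0.298 in Interstitial and 0.273, 0.314 and 0.279 in Sertoli libraries, and all populations overlapped. That overlap is over libraries A, B and C. On libraries A and B the exact permutation p of that ratio was 0.667 for Interstitial against Sertoli and for Leydig against Sertoli. For Leydig against Interstitial A and B did not overlap, with Leydig higher, and the exact permutation p was 0.33, the smallest possible. The erythroid, germ cell, endothelial and macrophage marker sums were highest in Interstitial libraries, where the CPM of mt-Nd6 was lowest. The endothelial and macrophage sums also separated Leydig from Sertoli libraries, which mt-Nd6 did not. The part of these sums in the result of mt-Nd6 was not tested.

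**Figure D4:**
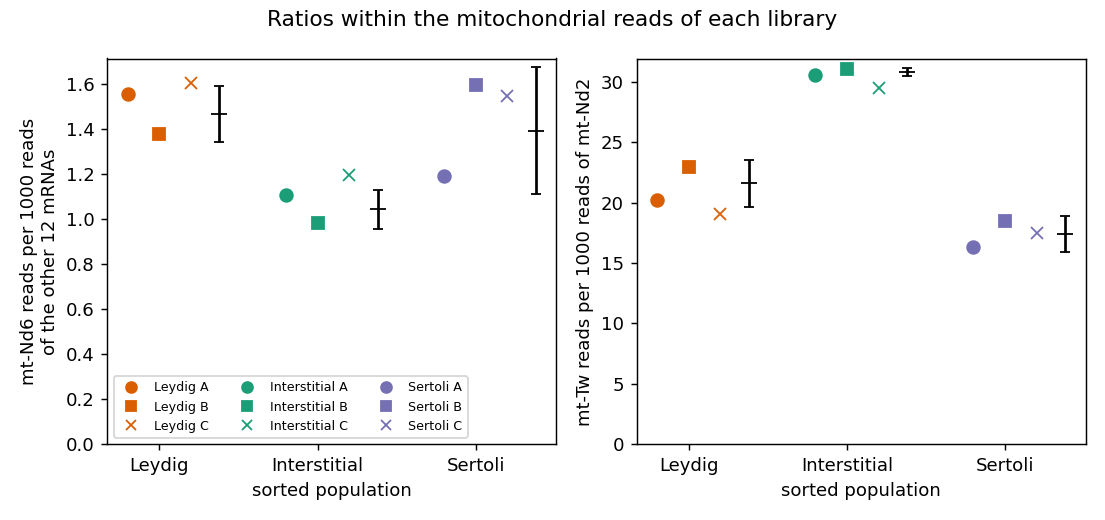
Reads of mt-Nd6 per 1000 reads of the other 12 mRNAs (left) and of mt-Tw per 1000 reads of its upstream neighbour mt-Nd2 (right), by library; black bars give the mean and SD of libraries A and B. Interstitial libraries are low for mt-Nd6, at 0.982 to 1.195, with Sertoli A at 1.191 just below Interstitial C. For mt-Tw they are highest, at 29.5 to 31.1.

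The 22 tRNA genes took few reads, 390 to 590 per library. Reads were found in 11 of them, and 11 were at 0 in all 9 libraries. A count of 0 allows up to 3 reads per library, which is 0.0764 to 0.0906 CPM. This limit covers counting error only and not reads that the counting set aside because they touched a neighbouring gene. Among the genes at 0 were those of the tRNAs for asparagine (mt-Tn) and lysine (mt-Tk). Among the genes with reads, mt-Tw (tryptophan) had the most, with 1764 over the 9 libraries, followed by mt-Tp (proline) with 715 and mt-Tt (threonine) with 541. Their sequences show how short the genes are. The capitals in mt-Tw are the 2 bases it shares with the end of mt-Nd2.
mt-Tw (chrM:4950-5016, plus strand): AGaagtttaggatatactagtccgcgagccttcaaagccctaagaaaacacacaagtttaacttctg
mt-Tt (chrM:15289-15355, plus strand): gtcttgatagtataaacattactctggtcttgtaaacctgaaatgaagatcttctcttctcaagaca
mt-Tp (chrM:15356-15422, minus strand): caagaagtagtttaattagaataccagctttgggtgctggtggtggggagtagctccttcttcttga
mt-Tn (chrM:5089-5159, minus strand): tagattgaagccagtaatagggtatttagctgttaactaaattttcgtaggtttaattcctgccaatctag
mt-Tk (chrM:7700-7764, plus strand): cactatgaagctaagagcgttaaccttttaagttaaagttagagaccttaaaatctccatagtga

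Apart from mt-Tf, whether a tRNA gene had reads followed the room around it on its own strand. The stretch between its nearest annotated neighbours on the same strand was 58 to 105 bases for the 11 genes at 0. For the 11 genes with reads it was at least 137 bases, or had no same-strand neighbour on 1 side (mt-Tq, mt-Tt and mt-Tp). The groups did not overlap. With neighbours of either strand, by contrast, 10 of the 11 genes with reads had a stretch no wider than 105 bases, starting at 64. The stretch of mt-Tw was 376 bases on its own strand and that of mt-Ts1 8225, so reads of these genes could reach well beyond the tRNA. The counts therefore cannot be read as levels of mature tRNA. The sources used here name neither the read length nor how reads that touch several genes were handled.

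**Figure D5:**
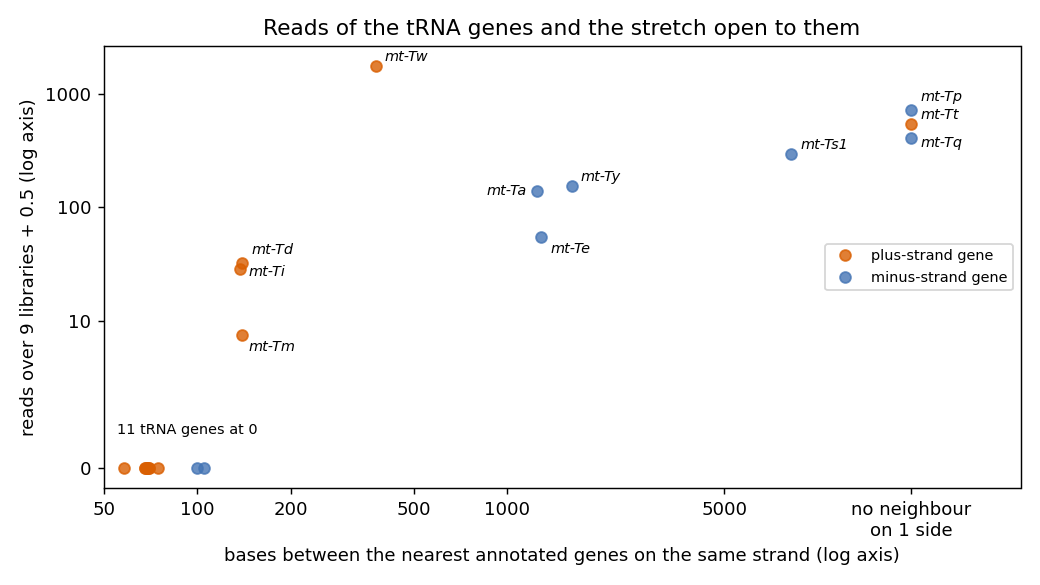
Reads of each of the 22 tRNA genes, summed over 9 libraries with 0.5 added (log axis), against the number of bases between the nearest annotated genes on the same strand (log axis); genes with no neighbour on 1 side stand at the right. All 11 genes at 0 have at most 105 bases, and the 11 with reads have at least 137 or stand at the right. mt-Tf also has no neighbour on 1 side, but its stretch was cut at the start of the reference, to 69 bases.

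Of the 22 tRNA genes, 7 passed the filter on low counts, and 1 of these was called in any comparison, mt-Tw. It was higher in Interstitial cells, the opposite of mt-Nd6 and of the plus-strand mRNAs. It had 4.60, 5.62 and 4.84 CPM in Leydig A, B and C, 7.62, 6.90 and 6.49 CPM in Interstitial and 3.90, 4.20 and 4.01 CPM in Sertoli libraries. None of the populations overlapped. The counts behind this were 153, 195 and 179 reads in Leydig, 308, 237 and 261 in Interstitial and 139, 143 and 149 in Sertoli libraries.

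For Interstitial against Sertoli the log2 difference of mt-Tw was 0.79 ± 0.16 (1.73-fold) with an adjusted p of 0.00246 in edgeR, called in all 16 alternatives. For Leydig against Interstitial it was -0.49 ± 0.16 with an adjusted p of 0.032, called in 10 of 16. That call was lost without Leydig A (adjusted p of 0.165), Interstitial A (0.144), Interstitial B (0.0615), Sertoli A (0.0522) or Sertoli B (0.0526), and in DESeq2 (0.0724). For Leydig against Sertoli it was 0.30 ± 0.16 with an adjusted p of 0.198.

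mt-Nd2, which ends where mt-Tw begins, did not move with it. There were 20.2, 23.0 and 19.1 reads of mt-Tw per 1000 reads of mt-Nd2 in Leydig A, B and C, 30.6, 31.1 and 29.5 in Interstitial and 16.3, 18.5 and 17.5 in Sertoli libraries. Again no population overlapped another, and Interstitial libraries varied least. The exact permutation p was 0.33 for each pair, the smallest possible. Those 4 marker sums were highest in Interstitial libraries too, and as for mt-Nd6, their part in the result of mt-Tw was not tested.

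The threonine tRNA gene mt-Tt, at the far end of the plus-strand precursor after mt-Cytb, was uneven within Interstitial. It had 1.60, 1.27 and 1.14 CPM in Leydig A, B and C, 2.33, 1.43 and 2.91 CPM in Interstitial and 1.32, 1.44 and 1.24 CPM in Sertoli libraries. Interstitial A and C were the highest of the 9 while Interstitial B lay among the others, and it was not called in any comparison. The other tested tRNA genes, mt-Tq, mt-Ta, mt-Ty, mt-Ts1 and mt-Tp, were not called either, at 0.20 to 2.52 CPM.

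Library C gave a view of technical spread, if it is the mix. A mix should lie between its parts up to the error of library making. Of the 13 mRNAs, the CPM of C lay between A and B for 6 in Leydig, 5 in Interstitial and 6 in Sertoli. In Leydig it lay above both for 6 and below both for 1, in Interstitial above for 5 and below for 3, and in Sertoli above for 6 and below for 1. The 6 above in Sertoli were mt-Co1, mt-Co2, mt-Co3, mt-Cytb, mt-Atp8 and mt-Nd6. For mt-Co1, Sertoli C at 8471 CPM was farther above Sertoli A at 7761 CPM than Sertoli B at 6911 CPM was above Leydig A at 6571 CPM.

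The nuclear genes for the same complexes were read from the same fit. The list held 80 nuclear genes of the respiratory chain and ATP synthase, of which 79 were tested. Against Sertoli cells, 1 was higher (Cox4i2, 1.05) and 32 were lower in Leydig, with a median log2 difference of -0.17. Cox4i2 lost its call without Leydig A (adjusted p of 0.193), Sertoli A (0.143) or Sertoli B (0.0875) in edgeR. Set against Interstitial cells, 6 were higher and 17 lower in Leydig, with a median of -0.05. In Interstitial against Sertoli cells, 7 were higher and 26 lower in Interstitial, with a median of -0.08. In shares, 41.8, 29.1 and 41.8% of the nuclear genes were called, against 37.5, 45.1 and 61.8% of all genes. The Leydig-Sertoli count fell to 7 without Sertoli A, 11 without Leydig B, 17 without Interstitial A and 18 without Interstitial B. The Leydig-Interstitial count fell to 12 without Leydig A and 13 without Interstitial A or Interstitial B, and the Interstitial-Sertoli count to 21 without Interstitial B.

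In complex I, 15 of 36 nuclear genes (41.7%) were lower in Leydig than in Sertoli cells and none was higher, where 20.6% of all genes were lower and 37.5% were called in either direction. The count of 15 fell to 3 without Leydig B or Sertoli A, 6 without Interstitial A and 7 without Interstitial B. In complex IV, whose nuclear list also holds tissue-specific isoforms, 3 were higher and 4 were lower of 14 tested for Interstitial against Sertoli, which is 50% called against 61.8% of all genes. The higher ones were Cox5a (0.36), Cox7a1 (0.60) and Cox7c (0.16), and the lower ones Cox6a1 (-0.57), Cox6b1 (-0.41), Cox6c (-0.31) and Ndufa4 (-0.37). Single calls were lost for Cox7a1 without Interstitial B (adjusted p of 0.176), Sertoli A (0.0695) or Sertoli B (0.23), for Cox7c without Interstitial A (0.052), Sertoli A (0.0666) or Sertoli B (0.191), and for Ndufa4 without Interstitial B (0.0627), in edgeR. Cox7a1, a complex IV subunit of heart and skeletal muscle, had 1.87, 2.77 and 1.92 CPM in Leydig A, B and C and 5.47, 7.07 and 5.82 CPM in Interstitial libraries, which did not overlap. Its log2 difference for Leydig against Interstitial was -1.42 ± 0.24 with an adjusted p of 0.00161 in edgeR.

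Of the factors that transcribe mitochondrial DNA, 10 were listed and tested, and 10, 10 and 20% of them were called for Leydig against Sertoli, Leydig against Interstitial and Interstitial against Sertoli, against 37.5, 45.1 and 61.8% of all genes. In Leydig against Sertoli cells 1 was lower, Tfb1m at -0.33. Against Interstitial cells 1 was lower in Leydig, the elongation factor gene Tefm at -0.58. Interstitial cells had 2 higher than Sertoli cells, Tefm at 0.41 and Mterf2 at 0.69. The call of Tfb1m was lost without any 1 of the 6 libraries (adjusted p of 0.0634 to 0.181 in edgeR). Those of Tefm were lost without Interstitial A (0.0607 for Leydig against Interstitial, 0.108 for Interstitial against Sertoli) and the second also without Sertoli B (0.186). These genes, like the others named below for a small count, were chosen after their values were seen. Polrmt, the mitochondrial RNA polymerase, had 32.4, 29.3 and 31.0 CPM in Leydig A, B and C, 33.0, 31.6 and 28.96 CPM in Interstitial and 32.8, 28.1 and 28.9 CPM in Sertoli libraries. These overlapped throughout. Tfam, which packages mitochondrial DNA and starts its transcription, had 54.6, 59.4 and 58.0 CPM in Leydig, 60.5, 62.3 and 67.0 CPM in Interstitial and 53.0, 54.5 and 56.4 CPM in Sertoli libraries, so that Interstitial libraries were highest by little. Neither was called in any comparison.

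Of the factors that hold or degrade mitochondrial RNA, 6 were tested. The share called was 16.7% for Leydig against Sertoli, 66.7% for Leydig against Interstitial and 50% for Interstitial against Sertoli, so that in the first and last it lay below the 37.5 and 61.8% of all genes, and in the other above the 45.1%. Between Leydig and Interstitial, 4 were lower and none higher in Leydig than in Interstitial cells: Lrpprc, Pnpt1 (-0.38), Supv3l1 (-0.42) and Rexo2 (-0.76). Interstitial cells had 3 higher than Sertoli cells and none lower: Lrpprc, Supv3l1 (0.29) and Rexo2. The last call of Supv3l1 was lost without Interstitial B (adjusted p of 0.0747), Sertoli A (0.125) or Sertoli B (0.0606) in edgeR. Between Leydig and Sertoli Rexo2 alone was called, higher in Leydig. Lrpprc, which with Slirp binds and stabilises mitochondrial mRNAs, had 131, 147 and 132 CPM in Leydig A, B and C, 202, 205 and 203 CPM in Interstitial and 139, 135 and 135 CPM in Sertoli libraries. Interstitial libraries lay above all others. The log2 difference was -0.53 ± 0.07 for Leydig against Interstitial and 0.51 ± 0.07 for Interstitial against Sertoli, with adjusted p-values of 0.000419 and 0.000206 in edgeR. Slirp was not called, with 34.6 to 40.8 CPM over the 9 libraries.

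Rexo2, a nuclease that degrades short RNA fragments in mitochondria, followed the same order as Lrpprc and also differed between Leydig and Sertoli. It had 16.8, 17.3 and 16.1 CPM in Leydig A, B and C, 30.1, 28.2 and 28.6 CPM in Interstitial and 12.4, 12.4 and 12.6 CPM in Sertoli libraries. No populations overlapped. The log2 difference was 1.18 ± 0.09 for Interstitial against Sertoli and 0.42 ± 0.09 for Leydig against Sertoli.

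The mitochondrial ribosome list held 77 nuclear genes, of which 76 were tested. In Leydig against Sertoli cells 1 was higher (Mrpl42, 0.26) and 13 were lower in Leydig, for Leydig against Interstitial 2 were higher (Mrps11, 0.65, and Mrps23, 0.29) and 29 lower in Leydig, and for Interstitial against Sertoli 17 were higher and 13 lower in Interstitial. The medians were -0.15, -0.18 and 0.02. In shares, 18.4, 40.8 and 39.5% of the ribosome genes were called, below the 37.5, 45.1 and 61.8% of all genes. The 14 calls for Leydig against Sertoli became 8 without Leydig B and 4 without Sertoli A, and the 31 for Leydig against Interstitial became 20 without Leydig A, 15 without Interstitial A and 19 without Interstitial B. Mrpl42 lost its call without Leydig A (adjusted p of 0.0611), Sertoli A (0.114) or Sertoli B (0.0625), and Mrps23 without any 1 library but Leydig B (0.0535 to 0.217), in edgeR. Mrps11 had 44.1, 39.8 and 40.6 CPM in Leydig A, B and C, 27.7, 26.4 and 26.7 CPM in Interstitial and 52.2, 49.2 and 50.2 CPM in Sertoli libraries. Mrpl23 was highest in Interstitial, at 35.6, 35.6 and 36.6 CPM, against 17.9, 16.7 and 17.7 CPM in Sertoli libraries. Subunits of the same ribosome thus differed in opposite directions.

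Of the factors that cut and process the precursors, 13 were tested. Of these, 5 were higher and 2 lower in Interstitial than in Sertoli cells, which is 53.8% called against 61.8% of all genes. For Leydig against Interstitial 53.8% were called, against 45.1% of all genes, and for Leydig against Sertoli 15.4%, against 37.5%. The higher ones were Trmt10c (0.36) and 1110008L16Rik (Prorp, 0.26), 2 subunits of the RNase P that cuts tRNAs at their 5′ ends, Elac2 (0.57), which cuts them at their 3′ ends, Fastkd3 (0.54) and Tbrg4 (0.45). The lower ones were Hsd17b10 (-0.69), the remaining RNase P subunit, and Fastk (-0.20). In Leydig against Interstitial cells Hsd17b10 was higher (0.45), and 6 were lower, among them Elac2 (-0.70), Trmt10c (-0.34) and 1110008L16Rik (-0.46). In Leydig against Sertoli cells 2 were lower, Fastkd1 (-0.27) and Grsf1 (-0.29). Subunits of 1 enzyme thus differed in opposite directions between the same populations, but several of these calls rested on single pools. Between Interstitial and Sertoli, Trmt10c was lost without Sertoli A (adjusted p of 0.108), 1110008L16Rik without Interstitial A (0.111) or Sertoli A (0.219), and Fastk without any 1 library but Leydig A (0.106 to 0.38), in edgeR. Between Leydig and Interstitial, Hsd17b10 was lost without Leydig A (0.111) or Interstitial B (0.17), and Trmt10c without Leydig A (0.145), Interstitial A (0.0537) or Interstitial B (0.1). Fastkd1 and Grsf1 were lost without any 1 library but Leydig B (0.062 to 0.216). The calls of Elac2, and that of Hsd17b10 between Interstitial and Sertoli, were kept in 16 of 16 alternatives.

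Of 17 enzymes that charge mitochondrial tRNAs, 23.5, 70.6 and 64.7% were called for Leydig against Sertoli, Leydig against Interstitial and Interstitial against Sertoli, against 37.5, 45.1 and 61.8% of all genes. In Leydig, 1 was higher and 3 were lower than in Sertoli cells, and 4 were higher and 8 lower than in Interstitial cells. For Interstitial against Sertoli 7 were higher and 4 lower in Interstitial. The counts fell in every comparison when either Interstitial library was left out. Among the 17 enzymes Lars2, which charges leucine tRNA, had the largest difference. It had 132, 48.9 and 182 CPM in Leydig A, B and C, 22.7, 25.4 and 22.0 CPM in Interstitial and 20.6, 24.7 and 18.1 CPM in Sertoli libraries. All Leydig libraries were higher, but B was far below A and C. The log2 difference was 1.96 ± 0.38 for Leydig against Sertoli and 1.93 ± 0.37 for Leydig against Interstitial, both called. The first became 1.07 without Leydig A and 2.55 without Leydig B, and the second 1.04 and 2.47. Iars2, for isoleucine, had 117, 115 and 114 CPM in Leydig, 106, 110 and 107 CPM in Interstitial and 218, 199 and 211 CPM in Sertoli libraries, and differed by -0.88 ± 0.07 for Leydig against Sertoli and by -1.01 ± 0.07 for Interstitial against Sertoli.

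Regulators of mitochondrial biogenesis, of which 6 were tested, differed in both directions. For Interstitial against Sertoli 3 were higher, Pprc1, Ppargc1b (0.62) and Nrf1 (0.25), and 1 was lower, Ppargc1a, which is 66.7% called against 61.8% of all genes. In each of the other comparisons 2 were called, Ppargc1a and Pprc1, with opposite signs. Ppargc1b lost its call without Interstitial A (adjusted p of 0.0627), Interstitial B (0.066) or Sertoli A (0.169), and Nrf1 without Sertoli A (0.0689), in edgeR. Ppargc1a, a coactivator that drives biogenesis in many tissues, had 11.8, 12.5 and 12.7 CPM in Leydig A, B and C, 6.11, 6.99 and 6.27 CPM in Interstitial and 17.1, 20.9 and 19.6 CPM in Sertoli libraries, which did not overlap. Its log2 difference was -0.68 ± 0.13 for Leydig against Sertoli, 0.91 ± 0.13 for Leydig against Interstitial and -1.59 ± 0.13 for Interstitial against Sertoli, all called. Its relative Pprc1 ran the other way. It had 56.9, 69.0 and 59.9 CPM in Leydig, 97.0, 114 and 93.9 CPM in Interstitial and 40.6, 49.6 and 43.8 CPM in Sertoli libraries, and its log2 difference was 0.44 ± 0.13 for Leydig against Sertoli, -0.73 ± 0.13 for Leydig against Interstitial and 1.17 ± 0.13 for Interstitial against Sertoli. The first was not called without Leydig B (adjusted p of 0.0692) or Sertoli A (0.178) in edgeR.

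The authors' deposited tables of the same 3 comparisons listed 1932 genes for Leydig against Sertoli, 1823 for Leydig against Interstitial and 3512 for Interstitial against Sertoli. None of the 37 genes of the mitochondrial genome was among them. The smallest absolute log2 fold change in each of the authors' deposited tables was 1, which is above every log2 difference called here for a member.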

How the data were processed

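Total RNA of sorted cells was sequenced after ribosomal depletion with a stranded kit, per the labels' protocols. Raw read counts per gene and lane were deposited by the authors. Per the submitters' processing notes, reads were aligned with TopHat2 2.0.6 to mm10 and counted with HTSeq. The authors also deposited limma tables with log2 fold changes, p-values, and t and log odds scores, per the file headers. The 5 summary lines of the counting were left out of library sizes. Counts were summed over 4 lanes. Symbols, positions and sequences were taken from GENCODE M21.

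Differences were tested with edgeR 4.0.16 in R 4.3.3 (filterByExpr, TMM, quasi-likelihood test, Benjamini-Hochberg adjustment over all 18048 genes tested) on libraries A and B of all populations in 1 fit, with calls at an adjusted p of 0.05. The common biological coefficient of variation was 0.0871. Displayed CPM values used TMM factors of all 9 libraries, so that ratios of displayed means can differ slightly from fitted ones. Alternatives used DESeq2 1.42.0, limma 3.58.1 (voom), other filters and scalings, fewer lanes and left-out libraries. The fit was tested on simulated data, where it missed part of the genes with small differences. The criterion for recovery, which was not met there, was then restricted to larger differences. A gene that was not called may therefore still differ by a small amount.

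This group of genes and the lists were chosen with earlier results of these data known, although the rule that set the members used no measured value. All 37 members could be named, and of the nuclear lists, per comparison, the 3 genes with the largest called differences each way, without overlap and at 5 CPM or more on the higher side, plus Polrmt, Tfam, Lrpprc and Slirp; not all of these are described, and others were named for small counts.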

Additional observations from a re-analysis of the deposited data

How the results depend on the processing

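Calls among the 13 mRNAs depended on the setting in all comparisons. For Leydig against Sertoli, where edgeR called 0, the count was 2 in DESeq2, limma voom and all 9 libraries and 1 with no low-count filter; leaving out 1 library gave 0 to 1. For Leydig against Interstitial, with 2 called, it was 4 in DESeq2 and limma voom, and 1 with scaling without mitochondrial genes, relative to the mRNA sum, by library size, and with 2 lanes; leaving out 1 library gave 1 to 2. For Interstitial against Sertoli, with 9 called, it was 5 with scaling without mitochondrial genes, 4 with 2 lanes and 1 relative to the mRNA sum or by library size; leaving out 1 library gave 2 to 10. Scaling by library size, which was chosen after seeing the data, moved the median of all genes by over 0.1 for Leydig against Sertoli and Interstitial against Sertoli.

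Whether the replicate letters pair the libraries was not settled: deviations of A from B correlated at 0.018, 0.248 and 0.1 across genes for the 3 comparisons, all positive. The main fit used no pairing. With the letter as a replicate block, 1 mRNA was called for Leydig against Sertoli and 4 for Leydig against Interstitial. Of all genes, 7839 were then called for Leydig against Sertoli, against 6762 in the main fit.

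Nuclear respiratory chain genes called for Leydig against Sertoli numbered 33, but 21 with a filter at 1 CPM or with scaling without mitochondrial genes, 18 with 2 lanes and 11 by library size; leaving out 1 library gave 7 to 26. For Leydig against Interstitial, 23 became 43 with all 9 libraries and 12 to 21 without 1 library. For Interstitial against Sertoli, 33 became 21 to 36 without 1 library.

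The share of mRNA reads for Leydig against Interstitial, 0.058 points, was -0.000297 with reads outside genes and ambiguous reads in the denominator and 0.116 without mitochondrial rRNA. For Leydig against Sertoli the mRNA share changed sign without Sertoli A (0.006 points) and the rRNA share with all 9 libraries (-0.36 points) and without Sertoli B (-0.17 points).

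For the single genes whose differences are given, 914 recomputed values kept direction and call, 163 kept the direction but lost the call, 13 gained one and 10 turned. The uncalled difference of mt-Nd6 for Leydig against Sertoli turned to 0.0771 with 2 lanes, 0.0766 relative to the mRNA sum and 0.0303 by library size, with -0.2005 to 0.0692 without 1 library. Relative to the mRNA sum, differences for Interstitial against Sertoli turned to 0.0467 for mt-Co2, 0.0814 for mt-Atp8, 0.0618 for mt-Atp6, 0.0131 for mt-Nd5 and 0.00532 for mt-Cytb, as that scaling removes a shift common to the mRNAs. The cause of the other changes was not tested. Levels per kilobase of unique sequence were not run, since no genome was used here. Shares do not change when a library of the third population is left out. The tRNA genes with reads held 7 to 1764 reads each over 9 libraries, which limits their precision.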
